A study of Mus musculus with 6 samples.

Results

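The genes described are those of the guidance families: 20 semaphorins, 9 plexins, 2 neuropilins, 3 Slit ligands, 4 Robo receptors, 4 netrins, 4 Unc5 receptors, 9 EphA and 5 EphB receptors, 5 ephrin-A and 3 ephrin-B ligands. They were taken by gene symbol and make up 68 of the 30768 rows of the deposited gene table. The symbol rule used no measured value, but the families were chosen with earlier results of these data known. Messenger RNA was sequenced from bEnd.3 cells, an immortalised mouse brain endothelial line, in 6 libraries. In 3 of them the cells carried a miR-423-5p mimic, a synthetic copy of that microRNA, and in the other 3 a control mimic. Both groups are the same cell line, with no other treatment or genetic change given in the labels. The labels name neither the dose nor the time after transfection, nor whether the libraries came from separate cultures, so p-values measure only the spread between these libraries, which may be technical.

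Guidance proteins were named for steering growing axons, and endothelial cells use the same ligands and receptors during vessel growth. Semaphorins bind plexins, whose cytoplasmic part acts on small GTPases, and most secreted semaphorins of class 3 need a neuropilin as co-receptor. Slits bind Robo1 and Robo2, and netrins bind Unc5 and Dcc receptors. Membrane-bound ephrins bind Eph receptor tyrosine kinases on neighbouring cells, with signals passing into both cells. In blood vessels Plxnd1 receives Sema3e, Robo4 is found mainly on endothelium, and Efnb2 and Ephb4 mark arterial and venous cells.

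The sequences that follow show the mature microRNA and the stretches of guidance gene messages with a perfect match to its seed, bases 2 to 8. The microRNA comes from RefSeq (GRCm38.p6, chr11:77078122-77078144, minus strand), and its seed is in capitals. The matches were read from GENCODE M21 transcripts of GRCm38, on the sense strand, and the capitals mark the match.
miR-423-5p: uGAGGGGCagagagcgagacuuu
Sema6c: tttggcgaggaactcGCCCCTCg
Sema3f: cataggaccagcctaGCCCCTCA
Ntn1: gagggatgaagctcaGCCCCTCA
Ephb2: gggactcttccccctGCCCCTCA
Efna5: agggcagcccttgaaGCCCCTCA
Plxna1: ctcaacggtgtcctgGCCCCTCt
Ephb4, upstream match: ggactcacaagatgaGCCCCTCc
Ephb4, downstream match: ttttcccttgtaaatGCCCCTCc

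Sema6c is shown because it was the only called guidance gene with a match, Sema3f, Ntn1, Ephb2 and Efna5 because they passed the low-count filter and hold the longer match, in which an A follows, and Plxna1 and Ephb4 because they were among the most abundant members. All of these lie in the annotated 3′ UTR. The Sema6c stretch is at chr3:95173411-95173433, plus strand, that of Sema3f at chr9:107682386-107682408, minus strand, and that of Ntn1 at chr11:68211488-68211510, minus strand. The Ephb2 stretch is at chr4:136653505-136653527, minus strand, that of Efna5 at chr17:62604490-62604512, minus strand, and that of Plxna1 at chr6:89318503-89318525, minus strand. The Ephb4 stretches are at chr5:137373699-137373721, plus strand, and chr5:137374101-137374123, plus strand.

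Library totals ran from 63217696 to 78456344 counts, and 3 counts, the upper limit behind a count of 0, equal 0.0396 to 0.0508 CPM depending on the library, which covers counting error alone. CPM stands for counts relative to library size after TMM adjustment, and FPKM values are the authors' own, scaled for gene length as well but without TMM, so the groups can stand differently on the 2 scales. A gene was called, and is said to have risen or fallen, when edgeR's quasi-likelihood test on the deposited counts gave a Benjamini-Hochberg adjusted p under 0.05 over all 18103 genes tested. Of 17 endothelial markers 11 rose and none fell, with 16 tested (median log2 fold change 0.76). Over all genes tested 9.09% rose and 7.21% fell, and at a mean of 1 FPKM or more 12.9% and 7.91%. The summed level of the endothelial markers was 7147 to 7345 CPM in miR-423-5p libraries and 4315, 4109 and 3888 CPM in the controls. However, the junction gene Cldn5 stood at no more than 0.660 CPM and the transcription factor gene Sox17 at no more than 0.0846 CPM in any library. Control 3 stood apart on the second principal component and was the highest library for 11 of 12 neuron markers, 11 of 12 macrophage markers and 9 of 12 astrocyte and oligodendrocyte markers. The median neuron marker was at 0.0592 to 0.0792 CPM in miR-423-5p libraries and at 0.111, 0.048 and 10.8 CPM in controls 1, 2 and 3. Of 14 fibroblast and pericyte markers 7 fell and none rose, with 13 tested, where 7.21% of all genes tested fell. The summed level of these markers was 60.3 to 64.9 CPM in miR-423-5p libraries and 214.8, 243.5 and 117.8 CPM in controls 1, 2 and 3. Of the 12 neuron markers 5 or 6 were at 0 in each miR-423-5p library and 3, 6 and 0 in controls 1, 2 and 3, and of the 12 macrophage markers 5 were at 0 in each miR-423-5p library and 7, 4 and 0 in the controls. Summed over each list, neuron markers were at 129 to 155 CPM in miR-423-5p libraries and 48.5, 45.5 and 155.5 CPM in the controls, and macrophage markers at 716 to 998 CPM in miR-423-5p libraries and 599, 582 and 1021 CPM in the controls. In the miR-423-5p libraries 1 gene carried most of each sum. The neurofilament gene Nefl rose, with 121, 147 and 122 CPM in the miR-423-5p libraries and 44.2, 40.6 and 38.8 CPM in the controls (log2 fold change 1.66, edgeR adjusted p = 0.000558). The lysosomal gene Cd68 was not called, with 854, 705 and 986 CPM in the miR-423-5p libraries and 593, 577 and 754 CPM in the controls. The part of these markers in the results was not tested. In bulk samples a smaller share of cells of a type and less RNA per cell cannot be told apart.

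In miR-423-5p cells 8 guidance genes rose and 9 fell. The semaphorins Sema6d, Sema4c and Sema4b, the receptors Plxnd1, Plxna2 and Robo4, the ligand Efna1 and the semaphorin Sema6b rose. The ligands Sema3c, Sema6c, Slit3, Efnb2 and Efnb3 and the receptors Robo1, Robo2, Unc5c and Epha7 fell. Of all 18103 genes tested, 9.09% were called higher, 7.21% lower and 16.3% in either direction. Among the 59 guidance genes that passed the low-count filter, 13.6% were called higher and 15.3% lower, and their median log2 fold change was -0.15, beside -0.02 for all genes tested. All 3 miR-423-5p libraries lay above all 3 controls for 13 of the 59, where 18.8% of all tested genes did so, and below them for 15, where 19.6% did so. The filter passes a gene through the group where it is high, so these shares describe the tested members and not all 68. Leaving out control 1 or control 2 left 3 that fell, and leaving out library 1 or 3 of the miR-423-5p group, or the low-count filter, left 5, whereas the number that rose stayed between 6 and 9 with any library left out.

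**Figure D1:**
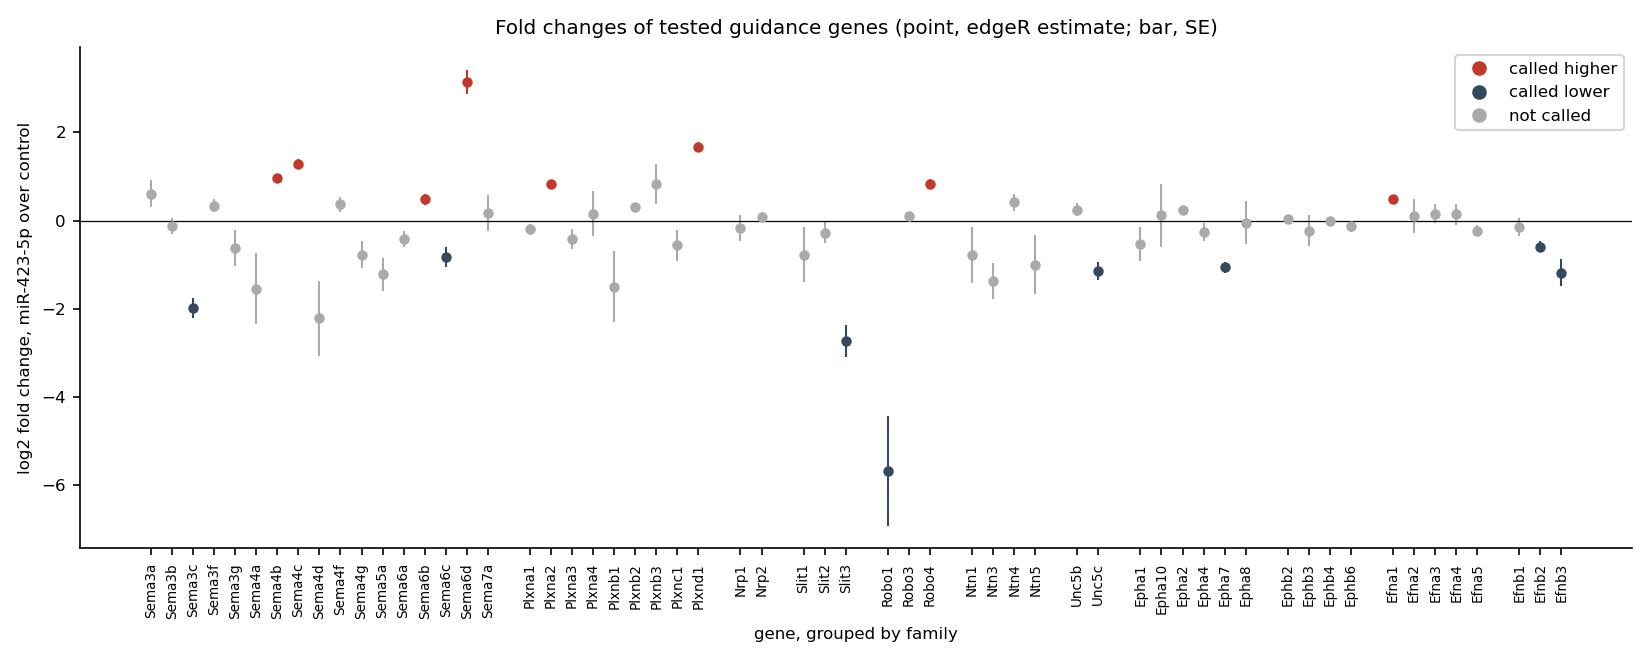
Log2 fold change of miR-423-5p over control (vertical axis) for tested guidance genes grouped by family (horizontal axis), with points for edgeR estimates, bars for SE and colours for calls. Robo2 is not drawn because it had no counts in the miR-423-5p libraries. Sema6d stands highest at 3.14, and Robo1 lowest at -5.67.

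Expression was concentrated in 27 of the 68 genes, which averaged 1 FPKM or more over the 6 libraries. These were 6 semaphorins, 4 plexins, Nrp2, Robo3, Robo4, Ntn4, Unc5b, 3 EphA and 3 EphB receptors, 4 ephrin-A and 2 ephrin-B ligands. No Slit ligand reached that level. The most abundant over the 6 libraries was Plxnb2, a receptor of class 4 semaphorins, with 77.0 ± 6.42 FPKM in miR-423-5p cells and 71.0 ± 7.37 FPKM in controls (SD, n = 3 each). Plxnd1 had 83.8 ± 13.3 FPKM in miR-423-5p cells and 29.8 ± 0.613 FPKM in controls. Robo4 had 41.6 ± 1.67 FPKM in miR-423-5p cells and 26.2 ± 2.03 FPKM in controls, and Ephb4 27.3 ± 3.89 FPKM in miR-423-5p cells and 31.2 ± 1.37 FPKM in controls. The genes nearest the limit were Efnb1 below it, at a mean of 0.914 FPKM, and Sema6d above it, at 1.08 FPKM. The mean is taken over both groups, so a gene's change bears on which side of the limit it falls. Sema6d passed it through the miR-423-5p libraries alone. Epha7, with 0.796 ± 0.111 FPKM in miR-423-5p cells and 1.88 ± 0.0637 FPKM in controls, and Efnb3, with 0.730 ± 0.222 FPKM in miR-423-5p cells and 1.89 ± 0.709 FPKM in controls, passed it through the controls alone (SD, n = 3 each). Counts of called guidance genes on either side of the limit are therefore not compared.

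**Figure D2:**
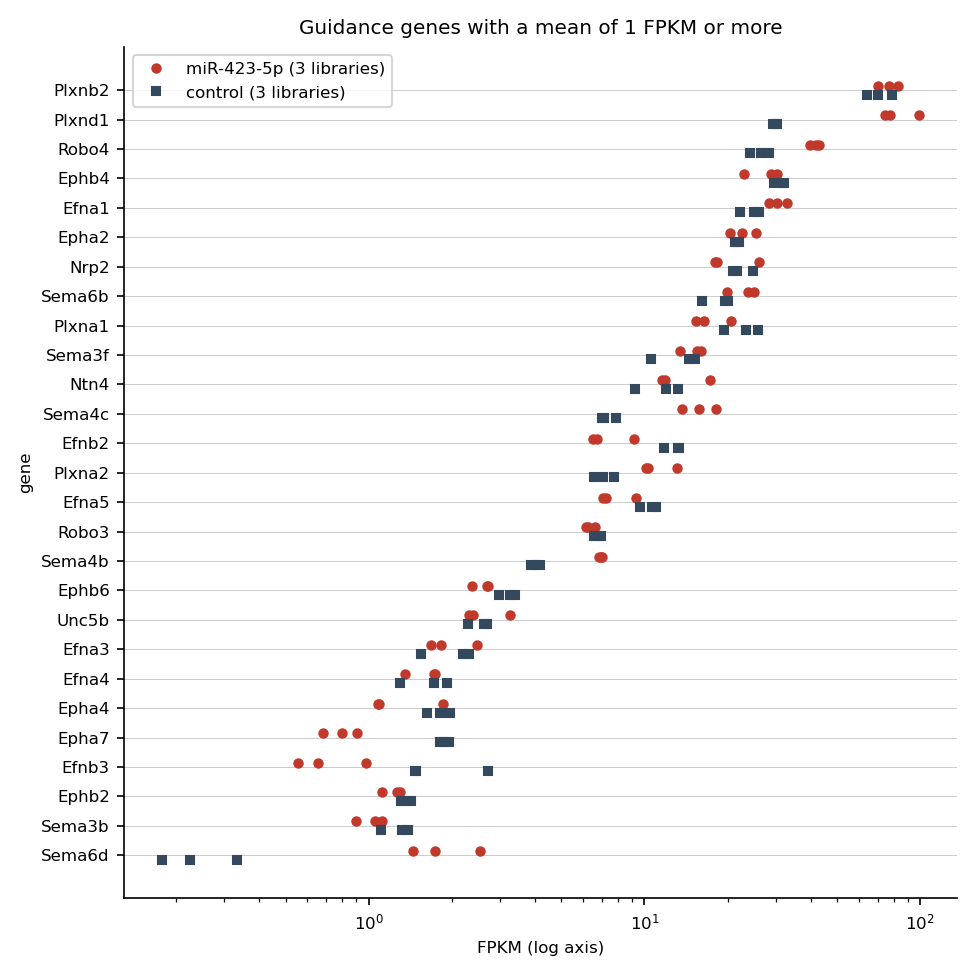
FPKM on a log axis of the 27 guidance genes with a mean of 1 FPKM or more, with 1 point per library, circles for miR-423-5p and squares for control. Plxnb2 is at the top with a mean of 74.0 FPKM. The miR-423-5p libraries stand above all controls for Plxnd1, Robo4, Sema4c, Sema4b, Sema6d, Plxna2 and Efna1. They stand below all controls for Epha7, Efnb2, Efnb3, Efna5, Ephb2 and Ephb6, of which Efna5, Ephb2 and Ephb6 were not called.

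Of 20 semaphorins, 17 were tested, 4 rose and 2 fell. Beside this and the family counts below stand 9.09% higher and 7.21% lower of all tested genes. With so few genes in a family, the counts do not show that a family differs from other genes. Sema6d, a transmembrane semaphorin that binds Plxna1 (ENSMUSG00000027200, chr2:124089969-124667769, plus strand in GRCm38), had 17.5, 29.6 and 22.0 CPM in miR-423-5p libraries 1, 2 and 3, against 2.46, 1.93 and 3.46 CPM in controls 1, 2 and 3. Every miR-423-5p library was above every control, with the highest value in library 2. The level was 8.79-fold higher, with a log2 fold change of 3.14 ± 0.28 (SE; adjusted p = 0.00104 with edgeR). In FPKM it remained low, at 1.91 ± 0.567 FPKM in miR-423-5p cells and 0.245 ± 0.0793 FPKM in controls (SD, n = 3 each), so that its share of all semaphorin FPKM was 2.86 ± 0.716% and 0.508 ± 0.205%.

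Both class 4 semaphorins that rose are transmembrane proteins. Sema4c, a ligand of Plxnb2 (ENSMUSG00000026121, chr1:36548639-36558349, minus strand), had 83.2, 91.9 and 74.9 CPM in miR-423-5p libraries 1, 2 and 3, against 37.6, 33.0 and 32.1 CPM in controls 1, 2 and 3. It was 2.43-fold higher, a log2 fold change of 1.28 ± 0.11 (SE; adjusted p = 0.000852 with edgeR). An antisense gene, D430040D24Rik, shares 334 exonic bases with Sema4c, and its 926 counts over all libraries compare with 24506 for Sema4c. Sema4b (ENSMUSG00000030539, chr7:80186841-80226527, plus strand) had 45.5, 43.3 and 46.0 CPM in miR-423-5p libraries 1, 2 and 3, against 24.4, 22.3 and 22.2 CPM in controls 1, 2 and 3. Its controls lay within a narrow band, and it was 1.95-fold higher, a log2 fold change of 0.97 ± 0.09 (SE; adjusted p = 0.00109 with edgeR). Sema4f, of the same class, had 4.72 to 5.78 CPM in miR-423-5p cells and 3.58 to 4.33 CPM in controls without overlap, and was not called (edgeR adjusted p = 0.176).

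Sema6b, the most abundant semaphorin in FPKM, had 114, 104 and 94.6 CPM in miR-423-5p libraries 1, 2 and 3, against 82.7, 79.2 and 62.7 CPM in controls 1, 2 and 3. The groups did not overlap, and it was 1.39-fold higher, a log2 fold change of 0.48 ± 0.12 (SE; adjusted p = 0.0369 with edgeR). That call was lost when any library was left out, with total-count scaling, with no low-count filter and with limma on FPKM, and the adjusted p ranged from 0.00363 to 0.193 over the 13 alternatives. Its relative Sema6c, which carries the seed match shown above, had 2.15, 2.15 and 1.71 CPM in miR-423-5p libraries 1, 2 and 3, against 3.95, 3.81 and 2.83 CPM in controls 1, 2 and 3. Each miR-423-5p library was below each control, and Sema6c was 1.76-fold lower, a log2 fold change of -0.82 ± 0.22 (SE; adjusted p = 0.0445 with edgeR). The Sema6c call was lost without any single library but control 3, with the replicate block (adjusted p = 0.0595) and with no low-count filter, and the adjusted p ranged from 0.023 to 0.158 over the alternatives.

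Of the secreted class 3 ligands, Sema3c fell. Sema3c, which acts through neuropilins and plexins, had 0.773, 0.858 and 0.711 CPM in miR-423-5p libraries 1, 2 and 3, against 3.45, 2.80 and 3.05 CPM in controls 1, 2 and 3. Every miR-423-5p library was below every control, at 3.96-fold lower, a log2 fold change of -1.98 ± 0.22 (SE; adjusted p = 0.00201 with edgeR). Sema3f, the Nrp2 ligand and the most abundant of the class, had 83.8 to 92.8 CPM in miR-423-5p cells and 53.7 to 82.2 CPM in controls, and was not called (edgeR adjusted p = 0.172), although its groups did not overlap. Sema3e, the ligand of Plxnd1, was near the limit of detection and not tested, with 0, 2 and 0 counts in miR-423-5p libraries 1, 2 and 3 and 17, 4 and 19 counts in controls 1, 2 and 3. Sema3a had 2.13 to 3.75 CPM in miR-423-5p cells and 1.34 to 2.35 CPM in controls, and Sema3b 4.98 to 6.43 CPM in miR-423-5p cells and 5.19 to 6.93 CPM in controls, and neither was called. Sema3d and Sema5b also did not pass the filter. The remaining tested semaphorins, Sema3g, Sema4a, Sema4d, Sema4g, Sema5a, Sema6a and Sema7a, were below 1 FPKM and not called. With total-count scaling Sema5a was called lower (log2 fold change -1.38, adjusted p = 0.0387), and with DESeq2 so was Sema4d (-2.21, adjusted p = 0.0154).

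Summed over the family, plexin FPKM was 182.6, 217.3 and 171.6 in the miR-423-5p libraries and 121.7, 130.5 and 144.5 in the controls. All 9 plexins passed the filter, and 2 rose and none fell. Plxnd1, the endothelial receptor of Sema3e (ENSMUSG00000030123, chr6:115954811-115995005, minus strand), had 651, 797 and 650.0 CPM in miR-423-5p libraries 1, 2 and 3, against 229, 217 and 214 CPM in controls 1, 2 and 3. The controls lay close together, and library 2 was the highest of the miR-423-5p group. It was 3.18-fold higher, with a log2 fold change of 1.67 ± 0.10 (SE; adjusted p = 0.000558 with edgeR). Its share of all plexin FPKM was 43.9 ± 1.54% in miR-423-5p cells and 22.7 ± 2.1% in controls (SD, n = 3 each), and the ratio of Plxnd1 to Plxnb2 in FPKM was 1.09 ± 0.0938 and 0.423 ± 0.0464. In the miR-423-5p libraries Plxnd1 was thus above Plxnb2 in FPKM, and in each control below it.

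Plxna2, a receptor of class 3 and class 6 semaphorins (ENSMUSG00000026640, chr1:194618218-194816869, plus strand), had 199.6, 248 and 212 CPM in miR-423-5p libraries 1, 2 and 3, against 117, 124 and 130.4 CPM in controls 1, 2 and 3. No libraries overlapped, and it was 1.78-fold higher, a log2 fold change of 0.83 ± 0.10 (SE; adjusted p = 0.00252 with edgeR). Plxnb2 had 684, 708 and 649 CPM in miR-423-5p libraries 1, 2 and 3, against 513, 552 and 595 CPM in controls 1, 2 and 3. Its groups did not overlap in CPM either, but it missed the threshold with a log2 fold change of 0.30 ± 0.08 (SE; adjusted p = 0.0513 with edgeR). It was called higher with DESeq2 (adjusted p = 0.0171) and without control 3 (log2 fold change 0.35, edgeR adjusted p = 0.0453), and with no other alternative. The log2 fold change of Plxnb2 was 0.14 with total-count scaling (edgeR adjusted p = 0.305) and 0.12 with limma at either pseudocount. In FPKM its groups overlapped, at 70.5 to 83.3 in miR-423-5p cells and 64.2 to 78.9 in controls. Plxna1, the Sema6d receptor, had 166 to 206 CPM in miR-423-5p cells and 182 to 228 CPM in controls, and was not called (log2 fold change -0.20, edgeR adjusted p = 0.278). Plxna4 had 3.74, 4.91 and 4.21 CPM in miR-423-5p libraries 1, 2 and 3, against 1.86, 2.15 and 7.50 CPM in controls 1, 2 and 3. Its control 3 value was the highest of all, and the log2 fold change was 0.16 (edgeR adjusted p = 0.860) with control 3 and 1.10 (edgeR adjusted p = 0.0228) without it. Plxna3, Plxnb1, Plxnb3 and Plxnc1 were below 1 FPKM and not called.

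Neither neuropilin was called. Nrp2, the co-receptor of Sema3f and the more abundant of the pair, had 246, 339 and 260.0 CPM in miR-423-5p libraries 1, 2 and 3, against 256, 262 and 286 CPM in controls 1, 2 and 3. The groups overlapped, with a log2 fold change of 0.07 ± 0.13 (SE; adjusted p = 0.751 with edgeR), and the sign turned with total-count scaling (-0.09). Nrp1, the co-receptor of Sema3a and of VEGF, had only 2.91 to 4.22 CPM in miR-423-5p cells and 2.67 to 5.42 CPM in controls.

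**Figure D3:**
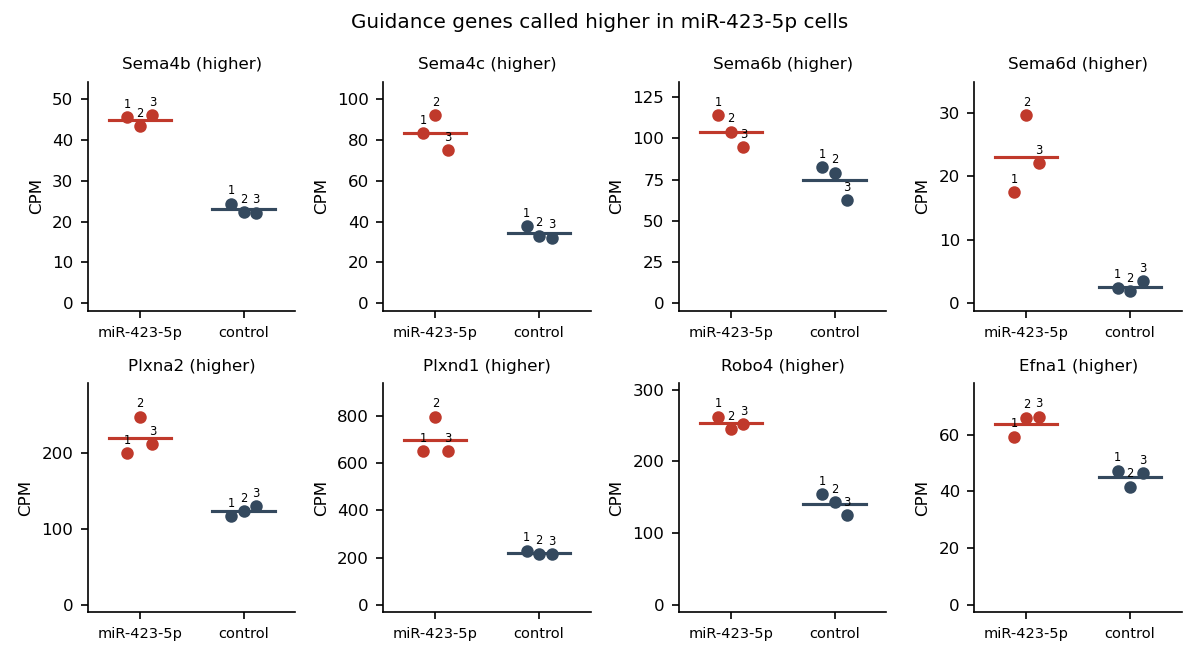
CPM per library of the 8 guidance genes that rose, with miR-423-5p on the left and control on the right, 1 numbered point per library and a line at the group mean, on linear axes from 0. In every panel the miR-423-5p points lie above the control points, with the smallest separation for Sema6b at 94.6 CPM for the lowest miR-423-5p library and 82.7 CPM for the highest control.

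Among Robo receptors, Robo4 rose while Robo1 and Robo2 fell. Robo4, the endothelial member of the family (ENSMUSG00000032125, chr9:37401897-37415115, plus strand), had 262, 245 and 252 CPM in miR-423-5p libraries 1, 2 and 3, against 155, 143 and 125 CPM in controls 1, 2 and 3. The groups were well apart, at 1.79-fold higher, a log2 fold change of 0.84 ± 0.09 (SE; adjusted p = 0.00196 with edgeR). Robo4 made up 86.8 ± 0.417% of all Robo FPKM in miR-423-5p cells and 79.2 ± 1.37% in controls (SD, n = 3 each). As with Robo4 and Plxnd1, 11 of 16 tested endothelial markers were called higher, beside 9.09% of all tested genes. The part of these markers in both results was not tested. Robo3, which lies beside Robo4 on chromosome 9 (ENSMUSG00000032128, chr9:37415669-37433246, minus strand), had 46.2 to 52.0 CPM in miR-423-5p cells and 44.0 to 49.2 CPM in controls, and was not called (edgeR adjusted p = 0.473). The log2 fold change of Robo3 was 0.10 ± 0.09 (SE).

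Robo1 and Robo2, the Slit receptors best known from axons, were detected almost entirely in controls. Both passed the low-count filter through the controls alone, so being tested already depended on the group where they were high, which limits their calls. Robo1 had 0, 0 and 5 counts in miR-423-5p libraries 1, 2 and 3 and 37, 50 and 214 counts in controls 1, 2 and 3. Control 3 held most of them, and the log2 fold change of -5.67 ± 1.24 (SE; adjusted p = 0.0215 with edgeR) became -4.49 (edgeR adjusted p = 0.0541) without control 3. The Robo1 call was also lost without control 1, control 2 or miR-423-5p 1, with no low-count filter and with limma, while DESeq2 (adjusted p = 3.08e-06) and the replicate block gave the call, and the adjusted p ranged up to 0.32 over the alternatives. Robo2 had 0, 0 and 0 counts in miR-423-5p libraries 1, 2 and 3 and 12, 16 and 245 counts in controls 1, 2 and 3. Against a floor of 3 counts per library it was at least 28.1-fold lower in miR-423-5p cells (edgeR adjusted p = 0.0462), and at least 4.46-fold lower without control 3, when it was not called (edgeR adjusted p = 0.0583). The Robo2 call was lost without any library, with no filter and with limma, and DESeq2 gave it no adjusted p, while the others ranged from 0.0116 to 0.444. Control 3 was the highest library for 11 of 12 neuron and 11 of 12 macrophage markers, the exceptions being Nefl and Cd68, and the part of these markers in both results was not tested.

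Slit3, a ligand of Robo1 and Robo2, fell at a low level. It had 0.186, 0.132 and 0.186 CPM in miR-423-5p libraries 1, 2 and 3, against 0.958, 1.39 and 1.02 CPM in controls 1, 2 and 3. Every miR-423-5p library was below every control, at 6.64-fold lower, a log2 fold change of -2.73 ± 0.36 (SE; adjusted p = 0.00365 with edgeR). Of 13 tested fibroblast and pericyte markers 7 were called lower, beside 7.21% of all tested genes. The part of these markers in the result was not tested. Slit2, the Slit with the highest FPKM, had 6.47 to 11.3 CPM in miR-423-5p cells and 8.51 to 11.6 CPM in controls, and was not called, nor was Slit1.

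No netrin was called by edgeR. Ntn4, a netrin of vascular basement membranes, was the only one above 1 FPKM and had 49.9, 71.3 and 53.1 CPM in miR-423-5p libraries 1, 2 and 3, against 46.3, 50.6 and 33.9 CPM in controls 1, 2 and 3. Control 3 was the lowest and miR-423-5p 2 the highest, and the groups overlapped, with a log2 fold change of 0.41 ± 0.18 (SE; adjusted p = 0.164 with edgeR). Ntn1, the founding axon attractant, had 0.229 to 0.528 CPM in miR-423-5p cells and 0.236 to 1.26 CPM in controls, and Ntn5 was as low. Ntn3 had 0.277 to 0.677 CPM in miR-423-5p cells and 0.840 to 1.32 CPM in controls. Its groups did not overlap, and it was called lower with total-count scaling (log2 fold change -1.53, adjusted p = 0.0391) and with limma on log2(FPKM + 0.1) (-0.88, adjusted p = 0.0338). It was the 1 netrin of 4 with an unadjusted edgeR p under 0.05.

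Of 4 Unc5 receptors, 2 were tested and Unc5c fell, while Unc5a and Unc5d did not pass the filter. Unc5c, a netrin receptor that mediates repulsion, had 1.52, 1.82 and 2.08 CPM in miR-423-5p libraries 1, 2 and 3, against 4.16, 3.98 and 3.80 CPM in controls 1, 2 and 3. The 3 controls were close together and above all miR-423-5p libraries, at 2.2-fold lower, a log2 fold change of -1.14 ± 0.20 (SE; adjusted p = 0.0104 with edgeR). It shares 118 exonic bases with the antisense gene Gm15688, which had 4 counts in all. That call was lost without control 1 or control 2 and with limma on log2(FPKM + 1), the adjusted p ranging from 0.000289 to 0.0856. Unc5b, the endothelial member and the only one above 1 FPKM, had 17.2 to 22.5 CPM in miR-423-5p cells and 14.6 to 17.4 CPM in controls, and was not called (log2 fold change 0.25, edgeR adjusted p = 0.266).

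**Figure D4:**
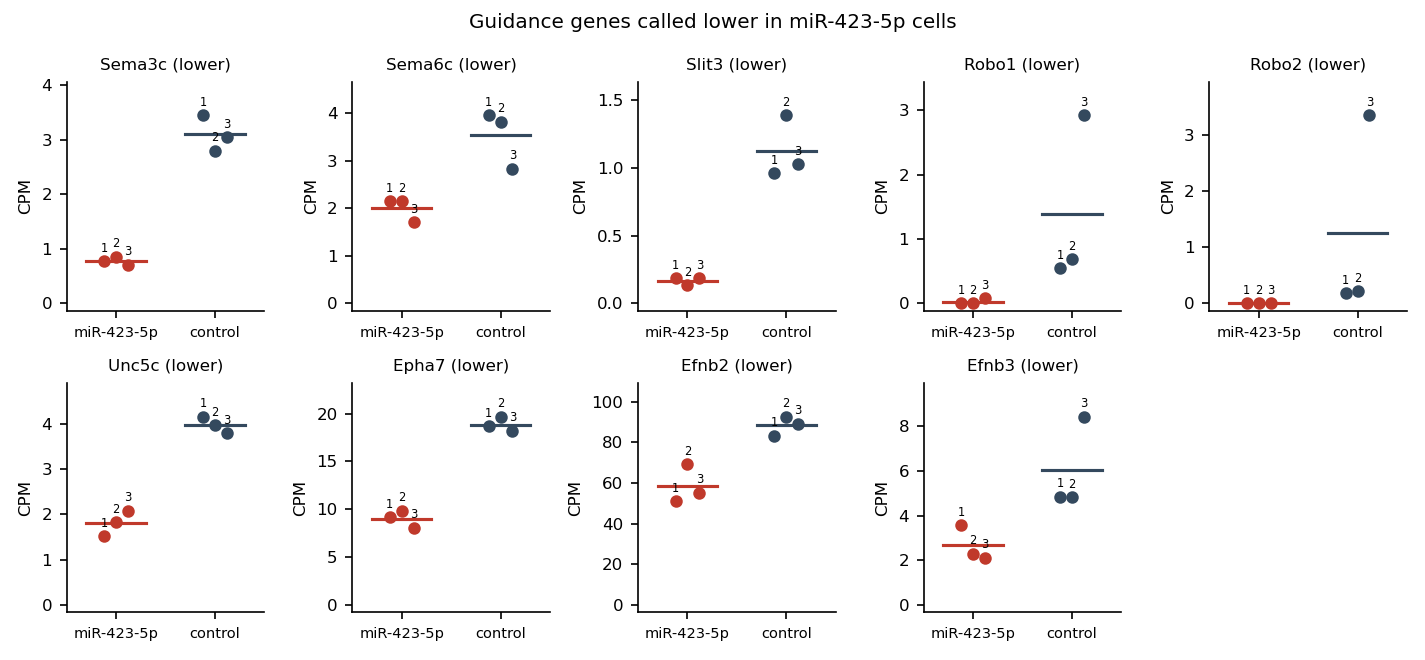
CPM per library of the 9 guidance genes that fell, with miR-423-5p on the left and control on the right, 1 numbered point per library and a line at the group mean, on linear axes from 0. All panels show the miR-423-5p points below the controls, and control 3 stands alone at the top for Robo1, Robo2 and Efnb3.

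Among EphA receptors, Epha7 fell and none rose, with 6 of 9 tested. Epha7 (ENSMUSG00000028289, chr4:28813131-28967499, plus strand), a receptor of A-type ephrins, had 9.15, 9.85 and 8.07 CPM in miR-423-5p libraries 1, 2 and 3, against 18.7, 19.7 and 18.2 CPM in controls 1, 2 and 3. The groups were clearly separate, at 2.09-fold lower, a log2 fold change of -1.06 ± 0.12 (SE; adjusted p = 0.00196 with edgeR). Epha2, the most abundant EphA receptor and the one that Efna1 binds in endothelium, had 121, 130.3 and 114 CPM in miR-423-5p libraries 1, 2 and 3, against 103, 104 and 101 CPM in controls 1, 2 and 3. Its miR-423-5p libraries were all above the controls, but it was not called, with a log2 fold change of 0.25 ± 0.08 (SE; adjusted p = 0.0630 with edgeR). Epha4 had 10.1 to 16.6 CPM in miR-423-5p cells and 13.6 to 15.6 CPM in controls, and was called lower without miR-423-5p 2 (log2 fold change -0.51, edgeR adjusted p = 0.0252). Epha1, Epha8 and Epha10 were not called, and Epha3, Epha5 and Epha6 were not tested. Of 5 EphB receptors 4 were tested and none was called, and 0 had an unadjusted p under 0.05 with edgeR or a call with DESeq2. Ephb4, the venous receptor of Efnb2, had 153, 154 and 127 CPM in miR-423-5p libraries 1, 2 and 3, against 142, 152 and 144 CPM in controls 1, 2 and 3. The ranges overlapped, with a log2 fold change of -0.01 ± 0.09 (SE; adjusted p = 0.945 with edgeR). Ephb2 and Ephb6 were each within 10.6 to 18.8 CPM in every library, and Ephb3 was below 1 FPKM.

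Of 5 ephrin-A ligands Efna1 rose. Efna1, an ephrin of activated and growing endothelium (ENSMUSG00000027954, chr3:89271733-89281142, minus strand), had 59.2, 66.0 and 66.2 CPM in miR-423-5p libraries 1, 2 and 3, against 47.2, 41.6 and 46.5 CPM in controls 1, 2 and 3. No library of one group reached into the other, at 1.42-fold higher, a log2 fold change of 0.50 ± 0.09 (SE; adjusted p = 0.0103 with edgeR). The call was lost without control 2 and with limma on FPKM at either pseudocount, the adjusted p ranging from 9.41e-05 to 0.11. Its ratio to Epha2 in FPKM was 1.34 ± 0.127 in miR-423-5p cells and 1.12 ± 0.0865 in controls (SD, n = 3 each). Efna5, which binds several EphA receptors, had 32.6 to 41.5 CPM in miR-423-5p cells and 38.0 to 45.9 CPM in controls, and Efna2, Efna3 and Efna4 had lower FPKM values, and none of the 4 was called.

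Of 3 ephrin-B ligands 2 fell. Their summed FPKM was 8.38, 10.7 and 7.92 in the miR-423-5p libraries and 14.2, 15.8 and 17.1 in the controls. Efnb2, the arterial ligand of Ephb4 (ENSMUSG00000001300, chr8:8617434-8661242, minus strand), had 51.1, 69.3 and 55.2 CPM in miR-423-5p libraries 1, 2 and 3, against 83.3, 92.5 and 89.2 CPM in controls 1, 2 and 3. All miR-423-5p libraries were below all controls, at 1.51-fold lower, a log2 fold change of -0.59 ± 0.12 (SE; adjusted p = 0.0168 with edgeR). Leaving out control 1, control 2, miR-423-5p 1 or miR-423-5p 3 ended the call, and the adjusted p ranged from 0.000246 to 0.0811 over the alternatives. The ratio of Efnb2 to Ephb4 in FPKM was 0.226, 0.303 and 0.295 in the miR-423-5p libraries and 0.396, 0.412 and 0.419 in the controls. Efnb3, an ephrin known mainly from the nervous system, had 3.58, 2.30 and 2.12 CPM in miR-423-5p libraries 1, 2 and 3, against 4.85, 4.82 and 8.42 CPM in controls 1, 2 and 3. Control 3 was the highest, and Efnb3 was 2.26-fold lower, a log2 fold change of -1.18 ± 0.31 (SE; adjusted p = 0.0390 with edgeR), against -0.86 (edgeR adjusted p = 0.0825) without control 3. The Efnb3 call was also lost without control 1, control 2, miR-423-5p 2 or miR-423-5p 3, with the replicate block (adjusted p = 0.0592) and with no low-count filter, the adjusted p ranging from 0.00273 to 0.144. Efnb1 had 2.54 to 3.61 CPM in miR-423-5p cells and 3.40 to 3.66 CPM in controls, and was not called.

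A set of low guidance genes was found mainly in 1 control library. In 8 of the 68 genes control 3 was at 5 or more times the next library, and it was the highest of the 6 libraries in 30. The same counts were not made over all genes, so they do not show whether guidance genes differ from others. Epha5, an Eph receptor of neurons, had 0, 0 and 3 counts in miR-423-5p libraries 1, 2 and 3 and 0, 0 and 181 counts in controls 1, 2 and 3. Epha3 had 4, 0 and 0 counts in miR-423-5p libraries 1, 2 and 3 and 0, 0 and 75 counts in controls 1, 2 and 3. Neither passed the filter. Sema4d, a ligand of plexins of the B class known from lymphocytes, had 0.415, 0.343 and 0.829 CPM in miR-423-5p libraries 1, 2 and 3, against 0.825, 0.727 and 5.77 CPM in controls 1, 2 and 3. With control 3 it had a log2 fold change of -2.21 ± 0.85 (SE; adjusted p = 0.118 with edgeR), and without it the value was -0.56 (edgeR adjusted p = 0.478). Sema5b, Epha6 and Ephb1 had no counts outside control 3, where they had 37, 13 and 28 counts, and Unc5a had 60 there against at most 6 elsewhere. Over all 18863 genes below 1 FPKM with a count, control 3 was the highest library for 29.2%, and over the 41 guidance genes at that level for 68.3%. Of those 18863 genes 6233 passed the low-count filter, and of the 41 guidance genes 32 did. The shares are thus not of like genes, and do not show whether guidance genes differ from others. Without control 3, 9 of 59 tested guidance genes were called higher and 6 of 59 lower, where 6.18% and 4.67% of 18599 tested genes were.

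**Figure D5:**
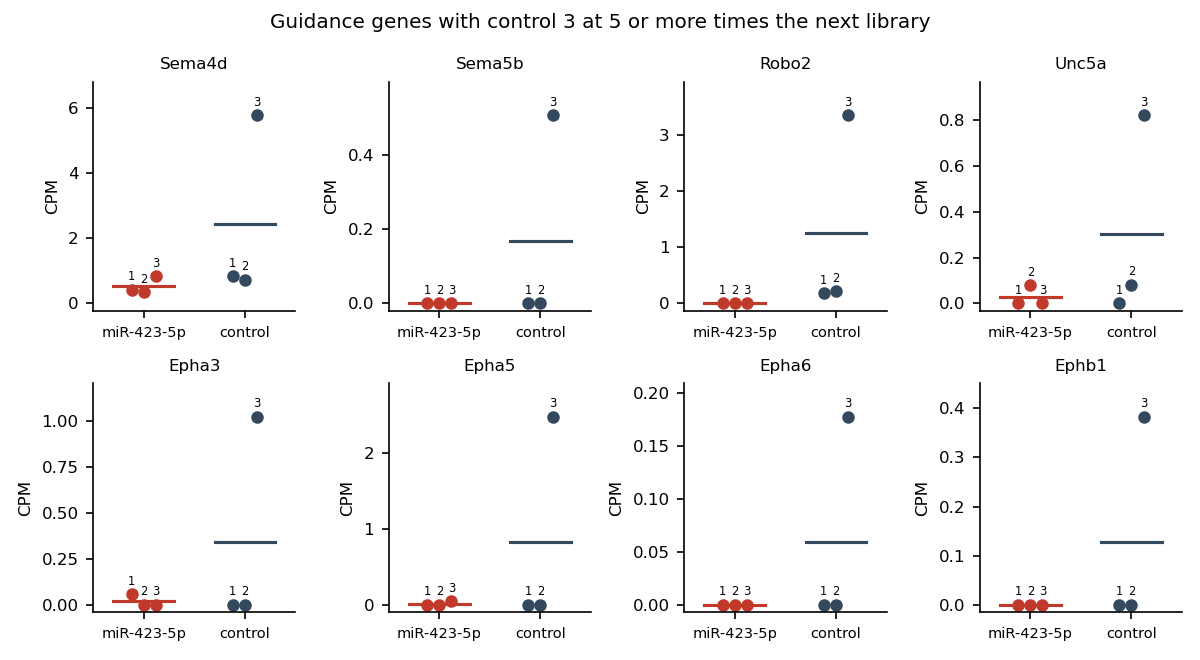
CPM per library of the 8 guidance genes whose control 3 value was 5 or more times that of the next library, with miR-423-5p on the left and control on the right, numbered points for libraries and a line at the group mean. Only Sema4d, Robo2 and Unc5a have counts in controls 1 or 2, and Epha5 reaches 2.47 CPM in control 3.

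For every gene the longest 3′ UTR in the annotation was searched for seed matches, as GCCCCTC on the sense strand, and as GCCCCTCA for the longer match, which contains the shorter. A match was held by 13 of the 68 guidance genes, namely Sema3a, Sema3f, Sema4d, Sema5b, Sema6c, Plxna1, Plxnb1, Ntn1, Ephb2, Ephb4, Efna2, Efna3 and Efna5. Among tested genes 12 of 59 guidance genes held one (20.3%), beside 13.2% of 13878 tested genes with a 3′ UTR. The median 3′ UTR length was 1538 and 1129 bases in these sets. The longer match was in 4 of the 59 (6.78%), beside 3.69%. The median log2 fold change was -0.11 for tested guidance genes with a match and -0.15 for those without, and it was -0.10 and -0.00 over all tested genes. Of the 13 genes with a match Sema6c was the only one called. Sema3f, whose match lies 36 bases into its 3′ UTR, had a log2 fold change of 0.34, Ephb4 with 2 matches -0.01, Ephb2 with 2 matches 0.03, and Efna5 -0.23, and none of these was called. Sema4d, with 1 match, had the most negative value of the matched genes, -2.21 (edgeR adjusted p = 0.118), was called lower with DESeq2 (adjusted p = 0.0154), and had -0.56 without control 3. The other tested genes with a match, Plxna1 (-0.20), Sema3a (0.61), Plxnb1 (-1.50), Ntn1 (-0.78), Efna2 (0.10) and Efna3 (0.16), were not called either, on the same log2 scale. Without control 3, Plxnb1 was at -0.12 and Ntn1 at -0.03.

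The proteins that relay guidance signals inside the cell were described from lists of 78 genes, of which 76 were tested. These lists were chosen with earlier results of these data known, which limits what their shares can show. Of these 17 rose (22.4%) and 9 fell (11.8%), where 9.09% and 7.21% of all tested genes did so, with a median log2 fold change of -0.00, beside -0.02 for all tested genes. The number that rose was 9 when control 1 or library 3 of the miR-423-5p group was left out, 6 without control 2, 10 with total-count scaling, and 9 and 7 with limma on log2(FPKM + 1) and log2(FPKM + 0.1). Those that fell numbered 4 when control 1 or control 3 was left out, 2 when control 2 or library 1 or 3 of the miR-423-5p group was, 5 with no low-count filter and 16 with DESeq2. In the list for semaphorins and plexins 12 of 30 rose and 3 fell, a share of 40.0% and 10%, beside the same 9.09% and 7.21% of all tested genes, with a median log2 fold change of 0.18. The shares of all tested genes varied with level. At a mean of 1 FPKM or more 12.9% were called higher and 7.91% lower, and below it 1.75% and 5.87%. Mical2, which oxidises actin filaments, had a log2 fold change of 1.06 ± 0.13 (SE; adjusted p = 0.00263 with edgeR). The tyrosine kinase gene Fes had 0.72 (edgeR adjusted p = 0.00331), the GTPase gene Rap1b, a target of plexin GAP activity, 0.74 (0.00523), the actin-severing cofilin gene Cfl1 0.52 (0.00916) and the Src family kinase gene Fyn 0.51 (0.00989), with the edgeR adjusted p in parentheses.

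For Eph and ephrin signalling 2 of 22 genes rose and 2 fell, 9.09% in each direction, with a median log2 fold change of -0.02. These shares are near the 9.09% and 7.21% of all tested genes. Ngef, which encodes ephexin, had 5.18, 5.97 and 6.40 CPM in the miR-423-5p libraries and 0.590, 0.672 and 1.95 CPM in the controls. Its miR-423-5p values were all above the controls, with a log2 fold change of 2.44 ± 0.46 (SE; adjusted p = 0.0128 with edgeR). The exchange factor gene Vav3 had a log2 fold change of 0.85 ± 0.20 (SE; adjusted p = 0.0261 with edgeR). Tiam1, an exchange factor for Rac, had -0.92 (edgeR adjusted p = 0.0238), and the adaptor gene Nck2 -0.56 (edgeR adjusted p = 0.0193). For Robo, netrin and Unc5 signalling 3 of 24 tested genes rose (12.5%) and 4 fell (16.7%), with a median log2 fold change of -0.24. Srgap3, whose protein binds Robo receptors, had a log2 fold change of 0.73 ± 0.10 (SE; adjusted p = 0.00480 with edgeR). The actin regulator gene Vasp had 0.62 (edgeR adjusted p = 0.00451), and its relative Enah -2.43 (edgeR adjusted p = 0.0164). Pitpna, a lipid transfer protein that binds netrin receptors, had 0.61 (edgeR adjusted p = 0.00196), and the heparan sulphate proteoglycan gene Sdc1 -0.72 (edgeR adjusted p = 0.00147).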

How the data were processed

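Paired-end poly(A) RNA libraries of 3 miR-423-5p and 3 control mimic samples were sequenced, per the labels' protocols. The authors deposited counts and FPKM per gene in 1 table. Cutadapt 1.9, HISAT2 2.2.1, StringTie 2.1.6, DESeq2, edgeR and GRCm38 are named in the submitters' processing notes without a role, and the strand setting of the counting is not given in the sources used here. Deposited counts were fitted with edgeR 4.0.16 (filterByExpr, TMM, quasi-likelihood test, Benjamini-Hochberg over 18103 genes, adjusted p under 0.05), in R 4.3.3. SE was the log2 fold change over the square root of F. Deposited FPKM served for levels between genes and for limma 3.58.1 at pseudocounts of 1 and 0.1. DESeq2 1.42.0, other scalings, no filter, a replicate block and leaving out each library were the other alternatives. On simulated data with 200 changed genes among 17545, the test found 47.0% of those changed 2-fold and 73.0% of those changed 4-fold, and 5.51% of its calls were false. The simulated share of changed genes was far below the 16.3% of tested genes called in the data, so these rates need not hold there. Named genes were all called members, the most abundant member by FPKM of each family, members with a seed match, members where 1 library stood apart, and up to 5 called genes of each signalling list; other members are given to account for them all. The members and lists were chosen with earlier results of these data known. Seed matches were read from the longest 3′ UTR per gene in GENCODE M21.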

Additional observations from a re-analysis of the deposited data

How the results depend on the processing

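Of the 17 called guidance genes, 9 were called under all 13 alternatives, 6 of them higher and 3 lower. The count that rose, 8, was 6 to 9 over the libraries left out. The count that fell, 9, was 5 with no low-count filter and 3 to 7 over the libraries left out. For signalling genes the count that rose, 17, was 10 with total-count scaling, 9 with limma on log2(FPKM + 1), 7 with log2(FPKM + 0.1) and 6 to 17 over the libraries left out. The count that fell, 9, was 16 with DESeq2, 5 with no low-count filter and 2 to 12 over the libraries left out. At a mean of 5 FPKM, 17 guidance genes counted as expressed in place of 27, and 5 in place of 13 held the longer seed match. The cause of these differences was not tested. Leaving out a library also left fewer samples, and the limits named for level and match are stricter by definition.

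Deviations of same-numbered libraries from their group means correlated weakly, at 0.0749, -0.0264 and 0.0498. With 3 libraries a group, these values cannot exclude a weak pairing by replicate number. With the replicate block 8 guidance genes rose and 7 fell, and 15 and 8 signalling genes.

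Signs turned only for genes that were not called, and not all of these are listed. Robo3 went from 0.10 to -0.06 with total-count scaling. Without control 3, Nrp1 went from -0.16 to 0.16 and Slit1 from -0.77 to 0.32. Efna2 was -0.06 with total-count scaling, -0.02 with limma at either pseudocount, and between -0.20 without control 3 and 0.35 without control 1 over the libraries left out, with -0.12 without miR-423-5p 1. Efna3 was -0.01 and -0.02 with limma at pseudocounts of 1 and 0.1, and -0.02 without miR-423-5p 1 to 0.29 without control 1. Ephb2 was -0.13 with total-count scaling, -0.09 and -0.14 with limma, -0.00 without control 3 and -0.01 without miR-423-5p 1, to 0.09 without miR-423-5p 3. Ephb4 was 0.02 without control 2 and from -0.05 without miR-423-5p 1 to 0.10 without miR-423-5p 3. Nrp2 was -0.09 with total-count scaling, -0.12 and -0.13 with limma, and from -0.07 without miR-423-5p 2 to 0.16 without miR-423-5p 1. Over all tested genes the median was -0.18 with total-count scaling and -0.02 with TMM. With 3 libraries a group, members with few counts were measured least precisely.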

Other observations

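Among the 27 expressed guidance genes, miR-423-5p 2 was the highest of the 3 miR-423-5p libraries for 15 (55.6%), and over all tested genes at that level it was the highest for 41.9%. It was also the highest for Plxnd1, Plxna2, Sema6d, Sema4c, Nrp2 and Ntn4.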
